A study of Mus musculus with 8 samples.

Results

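Gene expression of the subunits of respiratory complex I was examined in mouse brown adipose tissue (BAT) after thoracic aortic constriction (TAC), which overloads the left ventricle with pressure, or after a sham operation (Sham). The genes were taken by symbol, as those that start with Ndufa, Ndufb, Ndufc, Ndufs or Ndufv, with Ndufab1 included and the assembly factors (Ndufaf genes) left out. The gene table held 46 such symbols, and 38 of them had a probe on the array, among 15006 named genes tested in all. All 38 genes passed the filter on dim probes, and the probe that stood for each was well above background on all 7 arrays with scanner values. The symbols with no probe were Ndufb1, Ndufb4b, Ndufb4c and Ndufs6b, with the other 4 being Ndufa11b, Ndufa12-ps, Ndufab1-ps and Ndufs5-ps.

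The mice were male C57BL/6NCrSlc mice with no genetic change named, housed at 23 °C, operated on at 11 weeks and given as 13 weeks of age at sampling. The labels gave 4 Sham and 4 TAC mice with 1 array each. The time after surgery was 2 weeks in the source name and 4 weeks in the description of the same samples. The tissue is whole BAT, so it also holds the other cells of the depot, and in such bulk RNA fewer cells of a type and less RNA per cell cannot be told apart.

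Complex I is the first enzyme of the respiratory chain. It takes electrons from NADH, passes them over a flavin and a row of iron-sulfur clusters to ubiquinone, and pumps protons out of the mitochondrial matrix. Its core subunits carry these reactions and are shared with bacteria, and part of the core is encoded by mitochondrial DNA. The supernumerary subunits surround the core and serve its assembly and stability. In brown adipocytes the proton gradient made by the chain is dissipated by Ucp1, the uncoupling protein, which releases the energy as heat.

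Promoter sequences of the members were also looked up, and whether they bear on the differences between the groups was not tested. RefSeq (GRCm38.p6) held the 250 bases before and 50 bases after the start for 33 of the 38 genes. They were searched on both strands for 4 short words known from promoters of respiratory genes, namely the NRF1 word GCATGCGC, the ERR core word AAGGTCA, the GABP word CCGGAAG and the YY1 word AAGATGG. At least 1 of the 4 words was present in 17 of the 33 promoters, or 51.5%, against 23.1% of the promoters of 27025 genes. The YY1 word was the most frequent, in 7 of 33 or 21.2% of members against 7.28% of all genes. The NRF1 word was in 3 members (9.09% against 3.05%), the ERR word in 3 (9.09% against 5.38%) and the GABP word in 4 (12.1% against 9.93%). All 7 YY1 matches of the members ran in the direction of the gene and began 23 to 39 bases after the start. A match of that kind, in the gene's direction and after the start, was present in 1.54% of all genes, a restriction that was chosen after the positions were seen. The word holds the letters ATG, with which coding sequences begin, and whether the matches overlap start codons was not tested. The 7 sites are shown with up to 10 bases on each side, the YY1 word in capitals, on the strand of the gene.
Ndufa3, chr7:3617385-3617411, plus strand: cgccaagaacAAGATGGccgggagtaa
Ndufa9, chr6:126849099-126849125, minus strand: attgtgggagAAGATGGcggccgccgt
Ndufb8, chr19:44555393-44555414, minus strand: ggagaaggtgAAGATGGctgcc
Ndufc1, chr3:51408917-51408943, minus strand: cctgcggaacAAGATGGcgccgtccgt
Ndufs4, chr13:114388045-114388069, minus strand: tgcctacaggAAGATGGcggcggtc
Ndufs6, chr13:73328433-73328459, minus strand: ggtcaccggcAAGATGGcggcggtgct
Ndufs7, chr10:80249463-80249489, plus strand: ggccgaggccAAGATGGcggcgctggc

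The 3 members with the NRF1 word are shown in the same way, with NRF1 letters in capitals, because Ndufa8 was among the members with the smallest p-values. These matches began 58, 83 and 8 bases before the start. In Ndufa11 the word also matched on the opposite strand in an overlapping position.
Ndufa11, chr17:56717694-56717721, plus strand: tgcactgcgcGCATGCGCgcacgccttg
Ndufa6, chr15:82354357-82354384, minus strand: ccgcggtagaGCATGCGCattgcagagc
Ndufa8, chr2:36049329-36049356, minus strand: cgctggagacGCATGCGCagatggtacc

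For Ndufab1, the member with the greatest difference between the groups, none of the 4 words was found. The 250 bases before its start, chr7:122101849-122102098 on the minus strand, are printed whole, with no capitals since no word matched.
Ndufab1: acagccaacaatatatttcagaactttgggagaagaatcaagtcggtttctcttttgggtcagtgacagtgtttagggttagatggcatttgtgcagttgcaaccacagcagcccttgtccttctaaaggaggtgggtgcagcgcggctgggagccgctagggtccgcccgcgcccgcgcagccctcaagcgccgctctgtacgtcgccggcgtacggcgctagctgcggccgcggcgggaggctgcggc

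Scanner files covered Sham replicates 2 to 4 and TAC replicates 1 to 4, and a table of processed values covered all 8 arrays and so added Sham replicate 1. Between 54.5% and 64.3% of spots per array were well above background. All 7 scanner arrays lay on 1 slide, with the Sham arrays in slide row 1 and the TAC arrays in slide row 2, so slide row and surgery cannot be told apart. All 12 brown adipocyte markers were above background on every array. TAC 1 stood apart from the other arrays, at 89.6 on a first principal component on which the other TAC arrays lay between -8.57 and 3.58 and the Sham arrays between -32.5 and -20.3. Sham 1 lay at -3.02 on the first principal component of the 8-array table. That was among TAC 2 to 4 (-4.84, -7.35 and 4.54) and away from Sham 2 to 4 (-20.9, -32.5 and -25.8). Results for the members as a set are therefore given with and without TAC 1, and with and without Sham 1.

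Complex I genes were slightly lower after TAC on the scanner arrays, but no gene passed the test. The level of a gene is the log2 intensity of its probe minus the 75th percentile of the array, and a difference is TAC minus Sham on this log2 scale. Of the 38 genes, 35 had a negative difference and 3 a positive one, against 55.1% negative among all named genes. The median difference over the members was -0.198, a ratio of 0.872 or 12.8% less signal, beside -0.027 over all named genes. Under quantile normalization the split was 26 negative and 12 positive, and the median was -0.0633. The adjusted p-value of limma was under 0.05 for 0 of 38 members, as for 0% of all probes, and the smallest among the members was 0.307. At an unadjusted p under 0.05, 6 of 38 members were lower, or 15.8%, beside 8.06% of all named genes and 8.44% of all probes. At that threshold 0 members were higher, beside 3.97% of all named genes. The standard error of a member's difference was between 0.0812 and 0.296, with a median of 0.116, and 28 of the 38 differences were less than 2 standard errors in size.

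In 12 of the 38 members, or 31.6%, every TAC array lay below every Sham array, which was the case for 10.8% of all named genes and 10.4% of all probes. These were Ndufa4, Ndufa8, Ndufa9, Ndufa10, Ndufa12, Ndufab1, Ndufb5, Ndufb6, Ndufc2, Ndufs1, Ndufs3 and Ndufs8. In 0 members all TAC arrays lay above all Sham arrays, beside 5.36% of all named genes. With Sham 1 added, 1 member of the 38 remained apart, Ndufab1, or 2.63% beside 6.51% of all named genes.

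**Figure D1:**
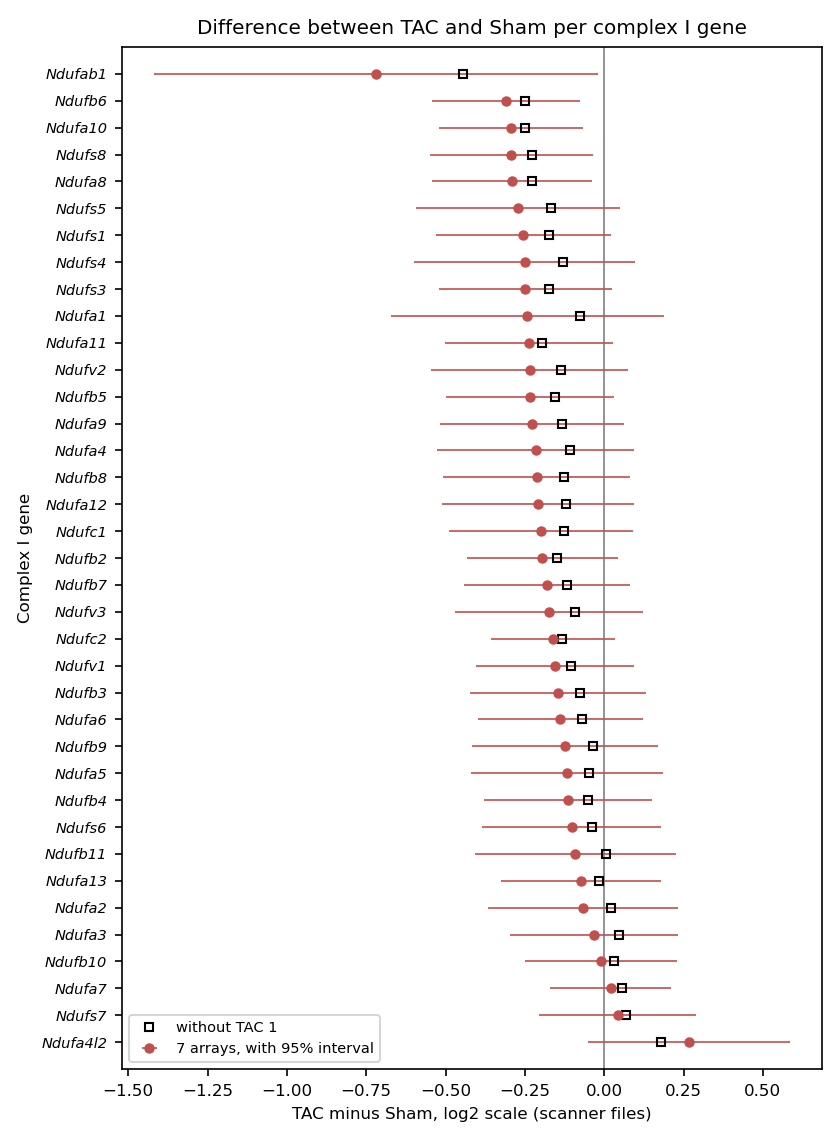
Difference between TAC and Sham for 37 complex I genes, on the log2 scale, with its 95% interval from limma (filled circles, 3 Sham and 4 TAC arrays) and without TAC 1 (open squares). Of the 37 circles, 34 lie below 0, and the intervals of 5 genes (Ndufab1, Ndufb6, Ndufa10, Ndufs8 and Ndufa8) do not reach 0 before adjustment for multiple tests.

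Ndufv1, Ndufv2 and Ndufs1 form the part of the core that oxidises NADH. Ndufv1 holds the flavin, and its level was 9.01, 9.23 and 8.96 on Sham 2, 3 and 4, and 8.77, 9.04, 8.9 and 8.95 on TAC 1 to 4. The groups overlapped, with TAC 1 lowest, and the difference was -0.154 (SE 0.106, limma adjusted p = 0.558). Ndufv2, an iron-sulfur subunit beside it, measured 7.65, 7.89 and 7.75 in Sham and 7.23, 7.69, 7.57 and 7.62 in TAC. TAC 2 lay above Sham 2, so these groups overlapped as well (difference -0.235, SE 0.131, limma adjusted p = 0.487). Ndufs1, the largest core subunit of this arm, carries several iron-sulfur clusters. Its values were 7.94, 8.02 and 7.83 in Sham and 7.43, 7.8, 7.67 and 7.8 in TAC. All TAC arrays lay below all Sham arrays, though the nearest were 7.8 and 7.83, and the difference was -0.255 (SE 0.117, limma adjusted p = 0.419). In the 8-array table Ndufs1 was 7.77 on Sham 1, below 3 of the TAC arrays, which read 7.98, 7.85 and 7.97 there.

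Ndufs3, Ndufs7 and Ndufs8 belong to the part of the core that leads electrons to ubiquinone. Ndufs8 binds iron-sulfur clusters, and was 6.08, 6.26 and 6.04 in Sham against 5.63, 5.9, 5.85 and 5.94 in TAC. Its groups did not overlap, and the difference of -0.293 (SE 0.109) had an unadjusted p of 0.0305 and a limma adjusted p of 0.35. Ndufs3, which links the arms of this module, read 8.34, 8.57 and 8.46 in Sham and 7.99, 8.34, 8.19 and 8.32 in TAC. The highest TAC array and the lowest Sham array met at 8.34 after rounding, with Sham 2 marginally higher, and the difference was -0.248 (SE 0.116, limma adjusted p = 0.428).

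Ndufs7 was the exception in the core. It holds the last iron-sulfur cluster before ubiquinone, and its levels were 8.6, 8.94 and 8.84 in Sham and 8.75, 8.83, 8.84 and 8.92 in TAC. The TAC arrays all fell inside the range of the Sham arrays, and the difference was 0.042 with a 95% interval from -0.204 to 0.288 (limma adjusted p = 0.884). Of the 7 nuclear core subunits, 6 had a negative difference and the median was -0.248, under quantile normalization 5 and -0.134.

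Among the 29 supernumerary subunits, leaving aside Ndufa4 and Ndufa4l2, 28 differences were negative, 24 without TAC 1 and 20 under quantile normalization. Ndufb6, a small subunit of the membrane arm, had the smallest p of all members. It was 7.45, 7.61 and 7.51 in Sham and 7.04, 7.24, 7.24 and 7.34 in TAC, with no overlap, a difference of -0.31 (SE 0.0995, n = 3 and 4 arrays), and limma's adjusted p of 0.307. Its other probe gave a difference of -0.309 (SE 0.118), so both probes placed the gene equally far below Sham. On Sham 1, however, the 8-array table gave 7.36 for Ndufb6, inside the TAC values of 7.23, 7.41, 7.42 and 7.51.

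Ndufa10 belongs to a family of nucleoside kinases by sequence and sits on the matrix side of the membrane arm. It was 6.74, 6.84 and 6.6 in Sham and 6.3, 6.44, 6.46 and 6.53 in TAC, again without overlap (difference -0.294, SE 0.0968, limma adjusted p = 0.317). Ndufa8, a subunit of the intermembrane side with paired cysteine motifs, was 5.92, 6.15 and 5.98 in Sham and 5.54, 5.87, 5.76 and 5.74 in TAC. Its groups were also apart (difference -0.29, SE 0.107, limma adjusted p = 0.349). Without TAC 1 both genes kept their groups apart, with differences of -0.251 and -0.229. With Sham 1 added, both overlapped. In the 8-array table Ndufa10 was 6.5 on Sham 1, below 6.62, 6.64 and 6.7 on TAC 2, 3 and 4. Ndufa8 was 5.98 on Sham 1, inside its TAC values of 5.73, 6.05, 5.94 and 5.91.

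Ndufab1 had the greatest difference of the members. It is the mitochondrial acyl carrier protein, which serves fatty acid synthesis inside mitochondria and iron-sulfur cluster assembly as well as being a complex I subunit. Its levels were 2.98, 3.41 and 3.34 in Sham and 1.71, 2.85, 2.77 and 2.77 in TAC. Every TAC array lay below every Sham array, TAC 1 by far the most, and the difference was -0.718 (SE 0.296, 95% interval -1.42 to -0.0199, limma adjusted p = 0.382), a ratio of 0.608. Without TAC 1 it was -0.445 (unadjusted p = 0.0136). In the 8-array table Sham 1 read 3.1 and the highest TAC array 3.03, so Ndufab1 alone of the 38 members stayed apart there, at a difference of -0.65 (SE 0.263, unadjusted p = 0.0381). The gene rests on 1 probe, with a mean level of 2.83, the lowest of the members after Ndufa4l2.

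Ndufa4 and Ndufa4l2 are named as complex I genes, but the Ndufa4 protein is now assigned to complex IV, and Ndufa4l2 is a related protein whose gene is known to be induced in low oxygen. Ndufa4 was 7.79, 7.89 and 7.8 in Sham and 7.29, 7.76, 7.68 and 7.73 in TAC, below Sham on every array (difference -0.216, SE 0.132, limma adjusted p = 0.515). The difference of Ndufa4l2 had the opposite sign, with levels of 1.9, 1.82 and 2.02 in Sham and 2.45, 1.92, 2.13 and 2.23 in TAC. TAC 1, 3 and 4 lay above all Sham arrays and TAC 2 did not, and the difference was 0.268 (SE 0.135, unadjusted p = 0.0875, limma adjusted p = 0.455). With Sham 1, at 2 in the 8-array table, it was 0.28 (unadjusted p = 0.0487), and no other member was higher at that threshold, which 4.09% of all named genes were. With both genes left out the median of the other 36 members was -0.198 as well.

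**Figure D2:**
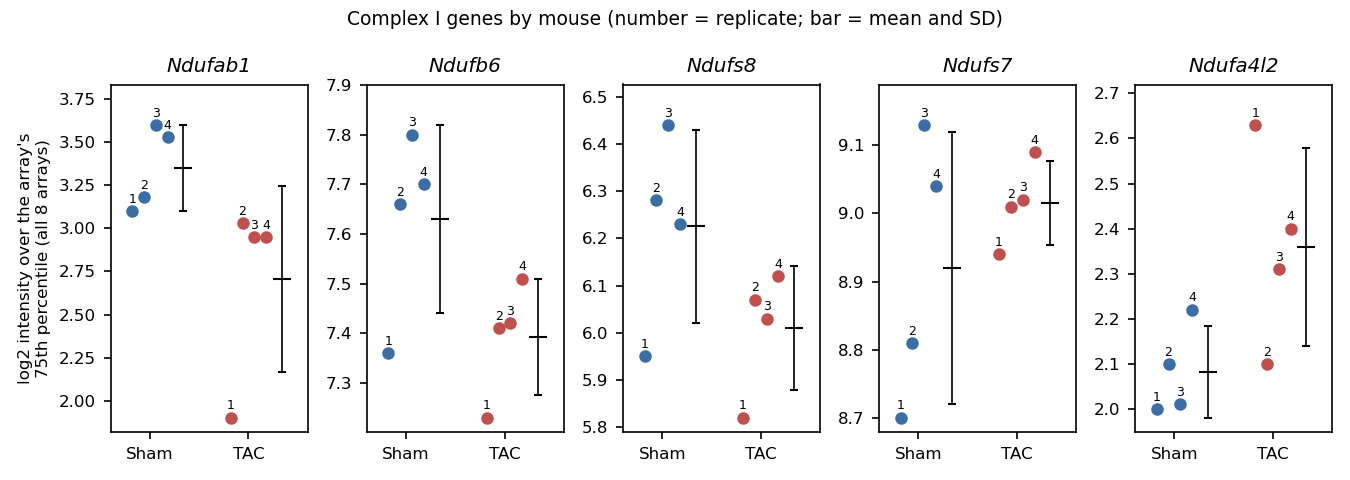
Levels of Ndufab1, Ndufb6, Ndufs8, Ndufs7 and Ndufa4l2 in the 8-array table (log2 intensity over the 75th percentile of the array), for 4 Sham mice (blue) and 4 TAC mice (red), with the replicate number above each point and the mean and SD as a bar. The vertical axes do not start at 0 and differ between genes. Sham 1 lies among the TAC values for Ndufb6 and Ndufs8, and above them for Ndufab1 (3.1 against at most 3.03).

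Ndufa7, a small supernumerary subunit near the ubiquinone module, was the third member with a positive difference. It was 8.1, 8.13 and 8.08 in Sham and 8.01, 8.2, 8.16 and 8.11 in TAC, so the groups overlapped. The difference was 0.02 (SE 0.0812, 95% interval -0.172 to 0.212) and had the opposite sign under normexp background correction and under median centring. Ndufv3, a supernumerary subunit of the NADH-oxidising part, was the one gene whose probes differed in sign. Its brighter probe was 8.66, 8.91 and 8.63 in Sham and 8.31, 8.71, 8.6 and 8.61 in TAC, with overlapping groups (difference -0.174, SE 0.126), and its other probe gave 0.0387 (SE 0.0992). For the other 5 genes with a second probe, Ndufa5, Ndufb4, Ndufb5, Ndufb6 and Ndufb11, both probes had a negative difference. The 2 probes of Ndufb5 differed in size, with -0.233 (SE 0.112) for the brighter and -0.496 (SE 0.235) for the dimmer, whose mean level was 3.55.

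The remaining 23 members all had a negative difference, between -0.271 for Ndufs5 and -0.00984 for Ndufb10, and their smallest unadjusted p was 0.0711. By family, 10 of 11 Ndufs and Ndufv genes were on the lower side with a median of -0.248, 12 of 14 Ndufa genes with -0.174, 10 of 10 Ndufb genes with -0.163 and 2 of 2 Ndufc genes with -0.18. Without TAC 1 the counts were 10, 10, 8 and 2 and the medians -0.137, -0.073, -0.0966 and -0.131. Quantile normalization moved the counts to 8, 8, 7 and 2 and the medians to -0.134, -0.0648, -0.043 and -0.0587. The 7 genes with the YY1 word were spread over the members, from -0.251 for Ndufs4 to 0.042 for Ndufs7.

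Array by array, most members had the same extremes. Relative to the mean of Sham 2 to 4, their median was -0.0957, 0.132 and -0.0323 on Sham 2, 3 and 4. On TAC 1 to 4 it was -0.405, -0.0665, -0.152 and -0.115. TAC 1 was thus the lowest and Sham 3 the highest, each for 36 of the 38 members, while TAC 2 lay between Sham 2 and Sham 4. In 36 members the spread among TAC 2 to 4 was smaller than that among Sham 2 to 4. Without TAC 1, 31 members were lower and 7 higher, beside 53.2% lower among all named genes, and the median was -0.119, beside -0.014. The same 12 members still had groups that did not overlap, beside 13.1% of all named genes, and 5 were lower at an unadjusted p under 0.05, beside 8.01%. Without Sham 3 the median was -0.127 and no member reached an unadjusted p under 0.05.

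Sham 1, which was among TAC 2 to 4 on the first principal component of the 8-array table, lay with the TAC arrays for most members. Its median in the 8-array table was -0.219 from the mean of Sham 2 to 4, where TAC 2, 3 and 4 had -0.0839, -0.166 and -0.138. All 38 members were below the mean of Sham 2 to 4 on Sham 1, and 30 of them were below all of TAC 2 to 4, which held for 32.4% of all named genes. Ndufab1 was the 1 member with Sham 1 above all of TAC 2 to 4. Over all 8 arrays 34 members were lower and 4 higher, Ndufb10 having turned to 0.0183, beside 57.4% lower among all named genes, with a median of -0.154 beside -0.0349. Ndufab1 and Ndufa8 were lower at an unadjusted p under 0.05, or 5.26% of members beside 8.92% of all named genes. Without TAC 1 the 8-array table gave 31 members lower, beside 55.9% of all named genes, and a median of -0.0849, and Ndufab1 was the only member lower at that threshold, or 2.63% beside 8.16% of all named genes. It was also the only member apart, where 8.72% of all named genes were.

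**Figure D3:**
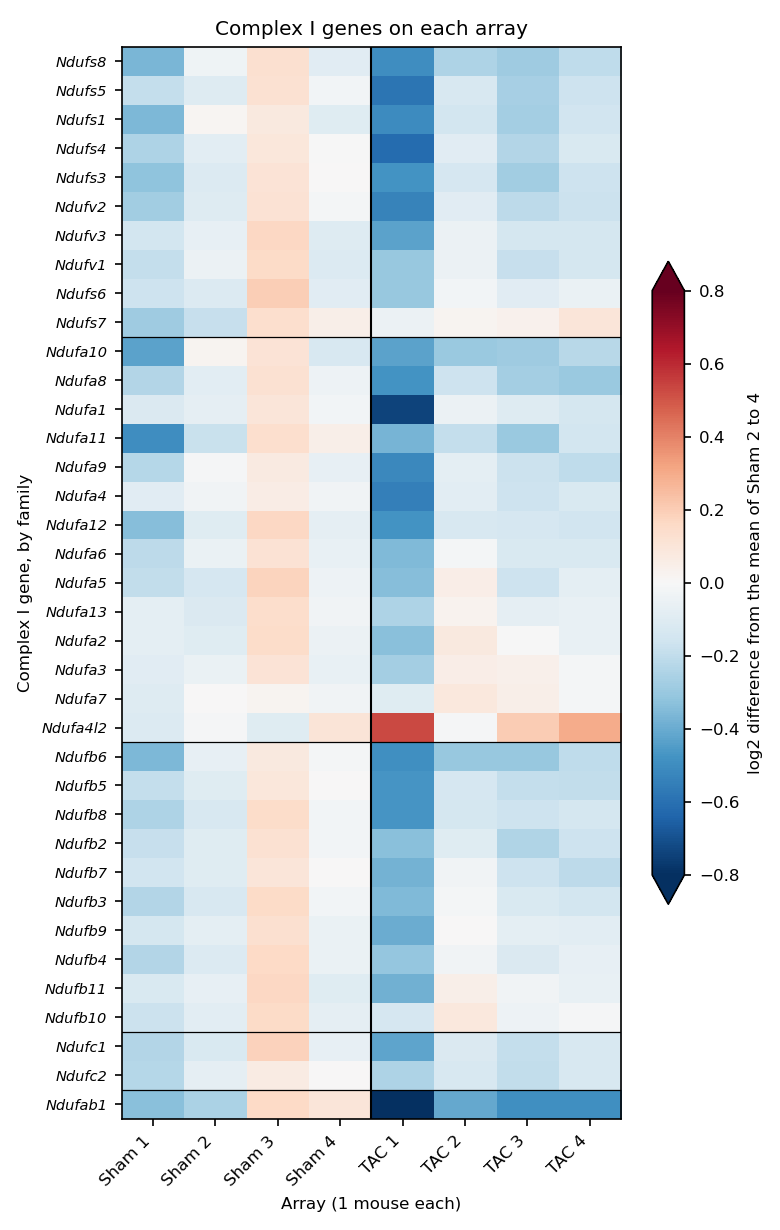
Difference of each of 37 complex I genes from the mean of Sham 2 to 4 on each of the 8 arrays, on the log2 scale, from red (higher) to blue (lower), with colours ending at 0.8 and -0.8. Rows are grouped as Ndufs and Ndufv, Ndufa, Ndufb, Ndufc and Ndufab1. Blue fills the TAC 1 column except for Ndufa4l2, and Sham 1 is blue for all 37 genes.

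Markers of other cells were measured beside the members on the same arrays. Above background on every array were 11 of 12 macrophage markers, 13 of 13 skeletal muscle markers and 7 of the 11 lymphocyte markers with a probe. On TAC 1 the median of the 12 macrophage markers was 1.43 above the mean of Sham 2 to 4, against -0.448 to 0.207 on the other scanner arrays, and the summed level of the list was 81.7 there and 38.4 to 47.8 elsewhere. The median of the 8 lymphocyte markers tested was 1.17 higher on TAC 1, while their summed level was 12.7 there and 10.6 to 11.2 elsewhere. The 7 fibroblast markers had a median of 0.509 on TAC 1, against -0.194 to 0.128 elsewhere, and a summed level of 261 against 174 to 216. Skeletal muscle markers were uneven, with medians of -0.884, 0.883 and 0.0116 on Sham 2 to 4 and 1.64, 1.29, -0.535 and 1.63 on TAC 1 to 4. On Sham 1 the muscle list was at 0.779, the lymphocyte list at 0.42 and the macrophage list at 0.176 in the 8-array table. The fibroblast, endothelial and white adipocyte lists were at 0.0399, 0.0925 and 0.0449 on Sham 1, and the erythroid list at -0.857. On the TAC 1 scanner array the endothelial, erythroid and white adipocyte lists were at 0.21, 0.113 and -0.729. The part of other cells in the complex I values of TAC 1 and Sham 1 was not tested.

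Subunits of the other respiratory complexes had differences of like size. Of 41 subunits of complexes II to V, 39 were lower with a median of -0.161. At an unadjusted p under 0.05, 4 were lower (9.76%, beside 8.06% of all named genes), and 8 had groups apart (19.5%, beside 10.8%). On the scanner arrays without TAC 1, 34 were lower, beside 53.2% of all named genes, and the median was -0.0918. In the 8-array table with TAC 1, 2 had groups apart (4.88%, beside 6.51% of all named genes). Quantile normalization gave 26 of 41 and -0.0169. Their medians were -0.385 on TAC 1 and between -0.142 and -0.0426 on TAC 2 to 4, close to those of complex I on the same arrays. Of the 2 that were higher, Cox6a2, the muscle and brown fat form of a complex IV subunit, was 0.56, 2.47 and 1.61 in Sham and 3.03, 2.73, 0.64 and 3.23 in TAC and so had its low values on the arrays with low muscle markers. Mitochondrial ribosomal proteins were lower in 70 of 77 genes (median -0.16) and TCA cycle enzymes in 12 of 13 (median -0.184), under quantile normalization in 61 and 10. Without TAC 1 the counts were 60 and 10 and the medians -0.0964 and -0.143. At an unadjusted p under 0.05, 13 ribosomal genes (16.9%) and 3 TCA cycle genes (23.1%) were lower on the scanner arrays. Groups were apart for 30 (39%) and 6 (46.2%). These shares were above those of complex I, 15.8% and 31.6%. Leaving out TAC 1 gave 13% and 7.69% lower at that threshold, beside 13.2% of complex I and 8.01% of all named genes. With Sham 1 added, groups were apart for 9.09% and 0%, beside 2.63% of complex I and 6.51% of all named genes. Whether complex I differed from these lists was not tested.

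Of 16 assembly factors, the genes that build complex I, 13 had a negative difference both with and without TAC 1, with medians of -0.189 and -0.165, and none passed the adjusted threshold. At an unadjusted p under 0.05, 6 were lower in both sets of arrays (37.5%, beside 8.06% of all named genes and 8.01% without TAC 1). In the 8-array table this count was 4 (25%, beside 8.92% of all named genes), and 2 without TAC 1 (12.5%, beside 8.16%). Groups were apart for 7 of the 16 in both scanner sets (43.8%, beside 10.8% and 13.1%). Nubpl, which delivers iron-sulfur clusters to complex I, was 2.57, 2.61 and 2.46 in Sham and 1.99, 2.2, 2.16 and 2.26 in TAC. That was a difference of -0.394 (SE 0.0945, unadjusted p = 0.00407, limma adjusted p = 0.219), with no overlap. Ndufaf1, an early assembly factor, had a difference of -0.351 (SE 0.0974) and Acad9, which acts with it, -0.22 (SE 0.073). Ndufaf7, a methyltransferase, had -0.3 (SE 0.0878), and Foxred1 had -0.302 (SE 0.103). Their limma adjusted p-values were between 0.268 and 0.329, and in all 4 the TAC arrays lay below the Sham arrays with no overlap. With Sham 1 added, none of the 16 stayed apart, beside 6.51% of all named genes. The list's median on Sham 1 was -0.269, lower than its -0.205, -0.153 and -0.157 on TAC 2, 3 and 4.

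**Figure D4:**
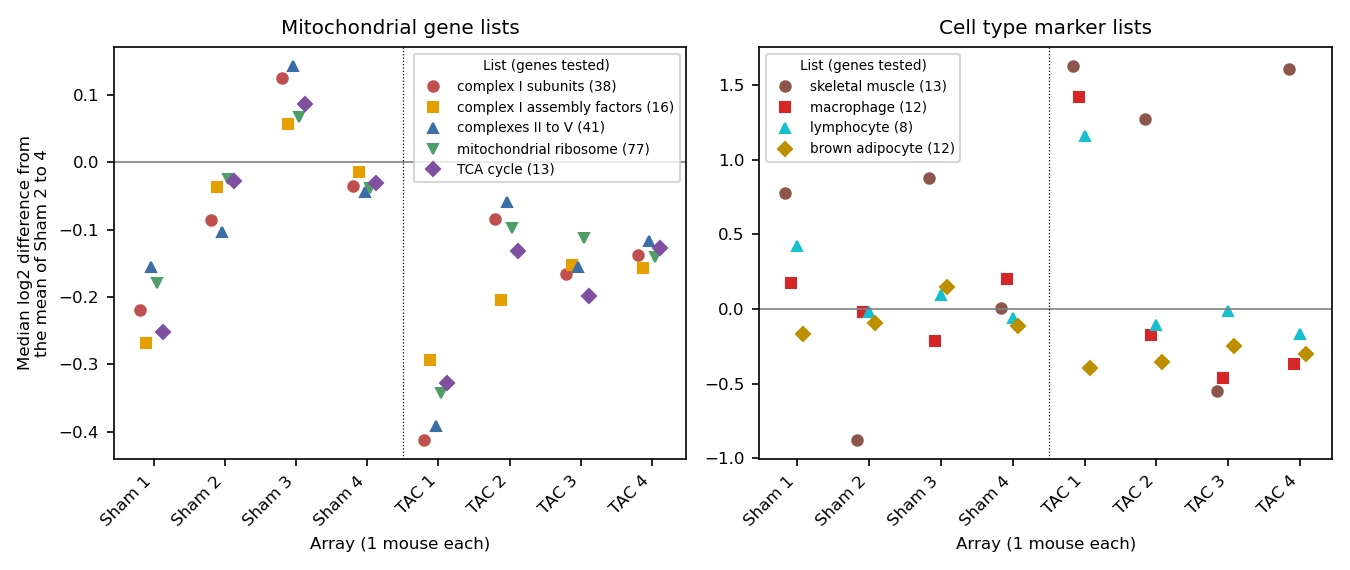
Median log2 difference from the mean of Sham 2 to 4 on each array of the 8-array table, for mitochondrial gene lists (left) and cell type markers (right), with the number of genes tested in brackets. The 5 mitochondrial lists are lowest on TAC 1 and lie below 0 on Sham 1, and macrophage and lymphocyte markers are highest on TAC 1.

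Ucp1 itself was 9.4, 9.7 and 9.53 in Sham and 8.37, 9.22, 9.17 and 8.97 in TAC. On these 7 scanner arrays all TAC arrays lay below all Sham arrays, as for 10.8% of all named genes, with TAC 1 the lowest. The difference of -0.611 (SE 0.215) had an unadjusted limma p of 0.0247 and a limma adjusted p of 0.336. The level of Ucp1 on Sham 1 is not given here. The 12 brown adipocyte markers were lower in 11 cases, with a median difference of -0.234. Without TAC 1 and over all 8 arrays 11 were lower as well, with medians of -0.318 and -0.331. Groups were apart on the lower side for 3 of the 12 on the scanner arrays. The 8-array table also had 3 apart, beside 6.51% of all named genes. Relative to the mean of Sham 2 to 4, the medians of the 12 markers were -0.387, -0.333, -0.236 and -0.28 on TAC 1 to 4, and -0.168 on Sham 1 in the 8-array table. The summed level of the list was 1970, 2570, 2500 and 2470 on TAC 1 to 4 and 2440, 3010 and 2590 on Sham 2 to 4, so that by the sum the groups overlapped.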

How the data were processed

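Total RNA of BAT was labelled with Cy3 and hybridized to one-colour Agilent arrays. The authors deposited scanner intensity values, background-subtracted by Agilent Feature Extraction 10.7.1.1 (submitters' processing notes) and not scaled between arrays, for Sham 2 to 4 and TAC 1 to 4, and a table of processed intensity values for all 8 arrays. How that table was made is not given in the sources used here. Its values were compared with the scanner intensity for the brighter probes, 21303 to 23390 per scanner array. Of these, 99.79% to 99.9% were within 1% of the scanner intensity divided by a constant. Dimmer probes and Sham 1 were not compared. The 75th percentile of the table was 1.002 to 1.004 per array. Values of Sham 1 came only from this table.

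Spots marked as outliers (134 to 191 of 59305 per array) were dropped, log2 intensity minus the array's 75th percentile was taken, and spots of a probe were averaged. Tested probes had to be well above background on 3 or more arrays, with values from 2 or more arrays of either group. The comparison used lmFit and eBayes (limma 3.58.1, R 4.3.3) with Benjamini-Hochberg adjustment over 33378 probes, and the scripts were tested on simulated data. The tested probe with the highest mean stood for a gene. Symbols came from RefSeq accessions (GRCm38.p6) for 50.3% of probes, and probe coordinates are left out since the design used another build. All p-values measure the spread between mice, whose number limits the precision. The alternatives were normexp, median centring, quantile normalization, the 8-array table, other dim-probe filters, outlier spots kept, an intensity trend, array weights, the methods' t-test, a mean over probes, a replicate block and leaving out each array.

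Members, gene lists and tests were chosen with earlier results of these data known. Named with values in every array were the 7 core subunits, the 5 members with the smallest p and the 5 with the most negative difference, members with a positive difference, Ndufa4, Ndufa4l2, Ndufab1 and members whose probes differed in sign, and Ucp1. From the other lists up to 5 genes each were named, some of them with their difference and standard error alone. Of these genes, 1 is in the counts and medians but is not reported here by itself. Mitochondrially encoded subunits were listed too, but not analysed here.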

Additional observations from a re-analysis of the deposited data

Results flagged for a closer look

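Each member, and the median over the members, was examined for a lone array among the 4 TAC scanner arrays and among the 4 Sham arrays of the 8-array table, 78 groups in all, by dividing the gap to the nearest other array by the whole range of the group and setting the ratio against Dixon's 95% critical value for 4 arrays. It was passed by 5 members, and in each the lone array was TAC 1, on the low side. The ratio was 0.956 for Ndufa12, 0.928 for Ndufab1, 0.9 for Ndufb8, 0.877 for Ndufa1 and 0.84 for Ndufb5. Ndufa12, a subunit of the matrix arm, was 7.62 on TAC 1 and 7.98, 7.97 and 7.97 on the others. Ndufa1, a small membrane subunit, was 8.05 on TAC 1 and 8.76, 8.7 and 8.67 on the others, and its difference of -0.242 became -0.0775 without TAC 1. Chance passes about 1 group in 20, and the members are not independent of each other, since they share the array.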

How the results depend on the processing

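The median of the members stayed negative under every alternative, from -0.236 to -0.0633, and from -0.236 to -0.119 with 1 array left out. No member had an adjusted p under 0.05 in any of them. Of 836 values of single members under the alternatives, 804 kept their sign, and the 32 that did not belonged to 11 members. Under quantile normalization the sign turned for Ndufa13 (0.103), Ndufa2 (0.052), Ndufa3 (0.116), Ndufa5 (0.0165), Ndufb10 (0.11), Ndufb11 (0.0562), Ndufb9 (0.0547), Ndufs6 (0.0567) and Ndufv1 (0.0294). In the 8-array table without TAC 1 it turned for Ndufa2 (0.0228), Ndufa3 (0.0494), Ndufb10 (0.0547) and Ndufb11 (0.0171), with TAC 1 for Ndufb10 (0.0183), and with array weights for Ndufa3 (0.0268) and Ndufb10 (0.0263). Ndufa7 turned to -0.00693 with normexp, -0.00949 with median centring and -0.00718 without TAC 2. Without TAC 1, Ndufa2 was at 0.0216, Ndufa3 at 0.0455, Ndufb10 at 0.0296 and Ndufb11 at 0.00476. Without Sham 3, Ndufa2 was at 0.0106, Ndufa3 at 0.0272 and Ndufb10 at 0.0714, and without Sham 2, Ndufs7 at -0.0551. With 1 array left out, Ndufa2 thus ranged from -0.121 to 0.0216, Ndufa3 from -0.0672 to 0.0455, Ndufa7 from -0.00718 to 0.0569, Ndufb10 from -0.0569 to 0.0714, Ndufb11 from -0.142 to 0.00476 and Ndufs7 from -0.0551 to 0.114. The causes were not tested.

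Members lower at an unadjusted p under 0.05 numbered 6, beside 2817 of 33378 probes (8.44%). They numbered 14 with normexp, beside 2677 probes, and 10 with an intensity trend, beside 2927. Without a filter on dim probes, where more probes were tested, there were 2, beside 3371. The 8-array table gave 2, beside 3194 probes, and 1 without TAC 1, beside 2884. With 1 array left out the count was 0 (without Sham 3, beside 1605 probes) to 5. The count higher was 0, but 1 with quantile normalization, in the 8-array table and without TAC 2 (0 to 1 with 1 array left out). Over all probes, 0 passed the adjusted threshold in either direction, with 1 lower under normexp, median centring and array weights, and with 1 array left out 0 to 6 higher and 0 to 1 lower, the 6 and 1 without TAC 4. Probes higher at an unadjusted p under 0.05 numbered 1462, with 1 array left out between 892 (without Sham 3) and 1562, and under the other alternatives up to 1906 (quantile normalization). Probes lower numbered 2817, with 1 array left out between 1605 (without Sham 3) and 2999, and up to 3478 with the replicate block in the 8-array table.

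The labels named no pairing of mice by replicate number, and correlations from so few mice cannot decide whether there was one. Same-numbered arrays correlated in their deviations at 0.00091, -0.0255 and -0.0212 on the scanner arrays and at 0.269, 0.0203, 0.0568 and 0.0195 for replicates 1 to 4 of the 8-array table, and not every array correlated best with its own number. With the replicate block, members lower at an unadjusted p under 0.05 numbered 1 on the scanner arrays, beside 2485 probes. In the 8-array table they numbered 3, beside 3478 probes. On the scanner arrays TAC 1 has no partner and drops out of the difference. There the block turned the sign of Ndufa2 (0.0216), Ndufa3 (0.0455), Ndufb10 (0.0296) and Ndufb11 (0.00476). In the table it turned that of Ndufb10 (0.0183). The number of arrays limits the precision of all differences, and every probe used for a member was well above background on the 7 scanner arrays.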

Other observations

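Other enzymes that feed electrons to ubiquinone were lower in 4 of 6 cases, with a median difference of -0.0457. Without TAC 1 these values were 4 and -0.0243, and over all 8 arrays 3 and -0.032. On the scanner arrays groups were apart for 2 lower and 1 higher gene, beside 10.8% and 5.36% of all named genes. In the 8-array table they were apart for 1 lower gene, beside 6.51%, and 1 higher gene, beside 482 of 15006 named genes. Gpd2, the mitochondrial glycerol-3-phosphate dehydrogenase of the glycerophosphate shuttle, was 5.54, 5.9 and 5.92 in Sham and 4.63, 5.17, 4.91 and 5.19 in TAC. This was a difference of -0.81 (SE 0.171, unadjusted p = 0.00208, limma adjusted p = 0.197), greater in size than that of any complex I gene, and -0.696 without TAC 1. Etfdh, which passes electrons from fatty acid oxidation to ubiquinone, had a difference of -0.422 (SE 0.165, limma adjusted p = 0.363), and its groups did not overlap on the scanner arrays. Prodh, which oxidises proline, was higher on every TAC array, at 5.03, 4.81 and 5.03 in Sham and 5.15, 5.37, 5.3 and 5.3 in TAC (difference 0.321, SE 0.0977, limma adjusted p = 0.294).

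Of 11 regulators of respiratory chain genes, 8 were lower, with a median of -0.027, equal to that of all named genes, and under quantile normalization 5 were lower. Esrra, a nuclear receptor that binds the ERR word, had a difference of -0.227 (SE 0.117, limma adjusted p = 0.461). Its relative Esrrg had 0.262 (SE 0.0963, limma adjusted p = 0.349) at a low level. All TAC scanner arrays of Esrrg lay above all Sham arrays, as for 5.36% of all named genes. Ppargc1a, the coactivator of mitochondrial genes, had -0.00902 (SE 0.417), and its range within Sham, from 2.28 to 3.55, was wider than any difference of a complex I gene.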
